A study of Homo sapiens with 66 samples.

Results

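The RNA levels of 4 genes, MB21D2, ANKRD13C, LINC00511 and TERT, were followed across DLD-1 cells, a line from a human colorectal cancer, after removal of single proteins of nuclear transport. They were matched by symbol to the Ensembl identifiers of the count tables, and all 4 were among the 17812 genes tested of 58051 listed. The genes were chosen by their values in NUP153-AID and NUP50-AID cells given auxin, so those values are described without a test, and tests were made only in the other lines. NUP153-AID cells have libraries after 2 h and 8 h of 1 mM auxin and NUP50-AID cells after 3 h and 9 h. The other lines are AID-TPR (2 h, and a set of replicates labelled old with 2 h and 8 h), AID-NXF1 (2 h), AID-GANP (3 h), RANGAP1-AID (2 h and 8 h) and parental DLD-1 cells (2 h), and AID-TPR cells were also given Actinomycin D (ActD) for 2 h with or without auxin. Each of the 22 groups has 3 libraries, 66 in all. In every tagged line the named protein carries an auxin-inducible degron (AID) on all copies of its gene, placed by CRISPR/Cas9. By the sample labels the degron came with the fluorescent protein NeonGreen on TPR, RANGAP1, NUP153 and NUP50. It came with a FLAG tag on NXF1 and an HA tag on GANP, so the tags differ between lines. The plant protein TIR1 is expressed from the RCC1 locus. Untreated controls carry the same tags as the auxin libraries of their line, and the lines are clones. The degron acts on protein, so its effect cannot be checked in RNA: the RNAs of the tagged genes changed by -0.06 to 0.29 on the log2 scale in 11 comparisons.

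TPR, NUP153 and NUP50 form or adjoin the basket on the nuclear side of the pore. GANP (gene MCM3AP) is the scaffold of TREX-2, which hands mRNAs to the pore, NXF1 is the main mRNA export receptor, and RANGAP1 makes Ran hydrolyse GTP in the cytoplasm. MB21D2 encodes a protein of the Mab-21 family, related by fold to the DNA sensor cGAS. ANKRD13C encodes an ankyrin repeat protein of the endoplasmic reticulum that is known to bind newly made G protein-coupled receptors. LINC00511 is a long noncoding RNA studied in many tumour types. TERT encodes the reverse transcriptase of telomerase, which extends chromosome ends with TERC as its RNA template, and its transcription is kept low in most cells and is a known limit on telomerase activity.

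Libraries held 18943661 to 55411411 reads on genes, with a median near 32285400. Of 8 markers of intestinal epithelium, 7 had a median above 1 CPM (a gene's counts scaled to the library total), from 14.8 CPM for VIL1 to 3686 CPM for KRT8, and LGALS4 was at 0.19 CPM. Of 6 markers of blood, stromal and endothelial cells, 5 had medians under 1 CPM and VWF was at 3.92 CPM. Reads were counted in more than 1 way. No counts fell on the mitochondrial genes in 24 libraries. The noncoding RNA RMRP had none in 33, which include all NUP153-AID and NUP50-AID libraries. How reads on overlapping genes were assigned is not given, so levels are compared between lines only as a description. The labels of the parental libraries are in doubt. A supplementary table of the study lists the same DLD-1 counts with both treatments named the other way round; the groups below follow the deposited labels, and every sign given for DLD-1 cells would turn with the other names. CYP1A1, a target of the aryl hydrocarbon receptor, stood at a log2 fold change of -3.84 ± 0.13 (SE) in the DLD-1 libraries labelled auxin and at 1.14 to 6.68 in the 11 comparisons of tagged lines without ActD. Indole compounds such as auxin are known ligands of that receptor. The part of auxin itself in the values below was not tested.

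All 4 genes lie on the minus strand (GRCh38, GENCODE 44). MB21D2 (ENSG00000180611, chr3:192796815-192917856) has 2 exons within 121 kb, and no other gene overlaps it. ANKRD13C (ENSG00000118454, chr1:70258999-70354734) spans 95.7 kb with 14 exons. LINC00511 (ENSG00000227036, chr17:72290091-72640472) spans 350.4 kb, longer than 97.9% of tested genes. RefSeq gives it a shorter model and places another noncoding gene, LINC00673, inside the same span, so reads of both may be counted as LINC00511. TERT (ENSG00000164362, chr5:1253147-1295068) spans 41.9 kb with 18 exons when overlapping exons are merged. The median span of tested genes was 23.2 kb.

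The 250 bases before the RefSeq start (GRCh38.p14) are shown for 3 of the genes. Their means rose together at the early time in NUP153-AID and NUP50-AID cells, which chose them. Means were also all higher in RANGAP1-AID cells and the old AID-TPR set, and all lower in DLD-1 libraries labelled auxin. MB21D2 went apart from ANKRD13C and LINC00511 in AID-TPR (log2 fold change -0.09 beside 0.25 and 0.45), AID-GANP (-0.10 beside 0.35 and 0.65) and AID-NXF1 cells (-0.47 beside 0.07 and -0.06). Shared control of the 3 genes was not tested. The capitals mark GCGTG or its complement CACGC, the core that the aryl hydrocarbon receptor and its partner bind, searched on both strands. They run 5′ to 3′ along the minus strand at chr3:192917857-192918106, chr1:70354723-70354972 and chr17:72640473-72640722.
MB21D2: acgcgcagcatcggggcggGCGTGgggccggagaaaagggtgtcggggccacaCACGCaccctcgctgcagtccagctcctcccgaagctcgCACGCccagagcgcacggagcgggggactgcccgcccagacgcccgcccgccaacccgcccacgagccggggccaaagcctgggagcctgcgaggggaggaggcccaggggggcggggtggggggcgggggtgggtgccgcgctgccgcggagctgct
ANKRD13C: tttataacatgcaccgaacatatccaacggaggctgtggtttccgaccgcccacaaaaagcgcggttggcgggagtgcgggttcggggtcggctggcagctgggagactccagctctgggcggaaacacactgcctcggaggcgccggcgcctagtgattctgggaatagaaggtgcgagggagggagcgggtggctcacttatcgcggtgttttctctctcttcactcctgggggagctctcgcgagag
LINC00511: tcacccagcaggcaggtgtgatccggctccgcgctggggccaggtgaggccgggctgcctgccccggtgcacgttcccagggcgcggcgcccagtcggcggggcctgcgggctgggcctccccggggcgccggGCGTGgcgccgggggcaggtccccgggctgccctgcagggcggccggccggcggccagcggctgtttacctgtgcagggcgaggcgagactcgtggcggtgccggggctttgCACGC
The core stood 3 times in the MB21D2 window and 2 times in that of LINC00511, and was absent from those of ANKRD13C and TERT. It was present in 32.2% of 35116 promoter windows, so its presence is common. The GC box GGGCGG stood 6 times before MB21D2, 2 times before ANKRD13C, 1 time before LINC00511 and 2 times before TERT, against 42.6% of windows with at least 1 match. The E-box CACGTG, read by MYC with MAX, was found only before TERT among the 4 genes and in 6.3% of windows. The CCAAT box (CCAAT), the cyclic AMP element (TGACGTCA), the AP-1 site (TGANTCA) and the ETS site (CCGGAAG) had no match in these 4 windows. A GCGTG core can adjoin a GC box, as at the start of the MB21D2 window. The windows were rich in G and C, at 77.6% for MB21D2, 61.2% for ANKRD13C, 79.6% for LINC00511 and 78.8% for TERT, with a median of 58.0% over all windows. Shares in windows of like G and C content, and the usual number of matches per window, are not given here.

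Per length of exon, untreated MB21D2 and ANKRD13C RNAs were the more abundant. Over 24 untreated libraries the median was 16.6 RPKM (CPM divided by the kilobases of exon) for MB21D2, 14.5 for ANKRD13C, 1.03 for LINC00511 and 0.30 for TERT. LINC00511 has 27664 exon bases in the merged model, which lowers its value per length. Counts of TERT were 25 to 214 per library, and the lowest, 25 in NUP50-AID untreated replicate 2, has an exact Poisson interval (95%) of 16.2 to 36.9, which covers counting error only. Counts were 653 to 5145 for MB21D2, 1507 to 5664 for ANKRD13C and 479 to 2034 for LINC00511, so TERT carries the most counting error.

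MB21D2 varied widely between untreated lines. Its mean was lowest in RANGAP1-AID cells, at 9.04 ± 0.20 RPKM (SD, n = 3), and highest in DLD-1 cells labelled untreated, at 27.9 ± 2.9. Between them stood AID-TPR (15.2), AID-TPR old (15.6), AID-GANP (15.7) and AID-NXF1 cells (15.8), whose ranges overlapped, and then NUP50-AID (20.2) and NUP153-AID cells (23.4), each with a range apart from its neighbours. ANKRD13C ran from 10.3 ± 1.0 RPKM in AID-TPR old to 16.6 ± 1.3 in NUP50-AID cells, and only the lowest group stood apart from its neighbour. LINC00511 ran from 0.84 ± 0.09 RPKM in AID-NXF1 to 1.39 ± 0.23 in DLD-1 cells, and TERT from 0.18 ± 0.03 in AID-NXF1 to 0.52 ± 0.10 in AID-TPR old cells. For these latter genes every neighbour in the order overlapped the next.

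In NUP153-AID cells, MB21D2, ANKRD13C and LINC00511 were high after 2 h of auxin and back at or under the untreated level after 8 h, while TERT had its highest mean at 8 h. MB21D2 stood at 74.4, 73.3 and 67.3 CPM untreated, 119.7, 117.3 and 121.4 CPM after 2 h and 50.7, 63.1 and 61.2 CPM after 8 h. All libraries of 2 h were above and all of 8 h below the untreated ones. In such bulk RNA, fewer cells that express a gene and less of its RNA per cell cannot be told apart. The log2 fold changes were 0.75 ± 0.06 (SE) at 2 h and -0.33 ± 0.08 at 8 h.

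ANKRD13C stood at 98.5, 93.7 and 89.0 CPM untreated, 131.0, 126.5 and 121.8 CPM after 2 h, and 83.2, 103.4 and 98.1 CPM after 8 h. The 2 h libraries did not overlap the untreated ones and the 8 h libraries did. Its log2 fold changes were 0.44 ± 0.06 and -0.01 ± 0.08. LINC00511 stood at 24.7, 24.1 and 22.9 CPM untreated, 38.4, 33.8 and 40.9 CPM after 2 h and 16.9, 17.2 and 16.5 CPM after 8 h. The noncoding RNA was therefore above the untreated range at 2 h and below it at 8 h, at 0.67 ± 0.08 and -0.53 ± 0.08 on the log2 scale.

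TERT stood at 1.67, 1.83 and 1.32 CPM untreated, 2.37, 2.65 and 1.3 CPM after 2 h, and 1.94, 2.98 and 2.99 CPM after 8 h. At 2 h replicate 3 lay below all untreated libraries, so the groups overlapped, and at 8 h all were above. Its log2 fold changes were 0.40 ± 0.26 and 0.68 ± 0.21 at 2 h and 8 h. Single libraries left out moved the value at 2 h between 0.20 and 0.65.

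In NUP50-AID cells MB21D2 and ANKRD13C were high after 3 h of auxin and within the range of the untreated libraries or just above it after 9 h, and TERT was high at both times. MB21D2 stood at 61.0, 59.0 and 66.0 CPM untreated, 106.9, 94.5 and 108.7 CPM after 3 h, and 73.7, 62.0 and 63.1 CPM after 9 h. The 3 h libraries were all above the untreated ones, and those of 9 h overlapped them, with log2 fold changes of 0.75 ± 0.09 and 0.07 ± 0.08. ANKRD13C stood at 101.4, 95.3 and 111.5 CPM untreated, 155.4, 131.6 and 152.2 CPM after 3 h and 111.3, 96.8 and 102.3 CPM after 9 h. It too was apart at 3 h and overlapped at 9 h, at 0.53 ± 0.09 and -0.01 ± 0.08.

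LINC00511 stood at 26.7, 30.3 and 40.0 CPM untreated, 39.9, 46.5 and 56.1 CPM after 3 h and 25.4, 26.8 and 29.1 CPM after 9 h. Untreated replicate 3 was high and touched the 3 h range, so both times overlapped the untreated group. Its log2 fold changes were 0.57 ± 0.16 and -0.28 ± 0.13, and without that library 0.76 and -0.09.

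TERT stood at 1.38, 1.07 and 1.64 CPM untreated, 4.75, 4.48 and 3.19 CPM after 3 h and 2.88, 3.84 and 2.82 CPM after 9 h. No auxin library overlapped an untreated one at either time. Its log2 fold changes were 1.60 ± 0.23 and 1.18 ± 0.22.

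**Figure D1:**
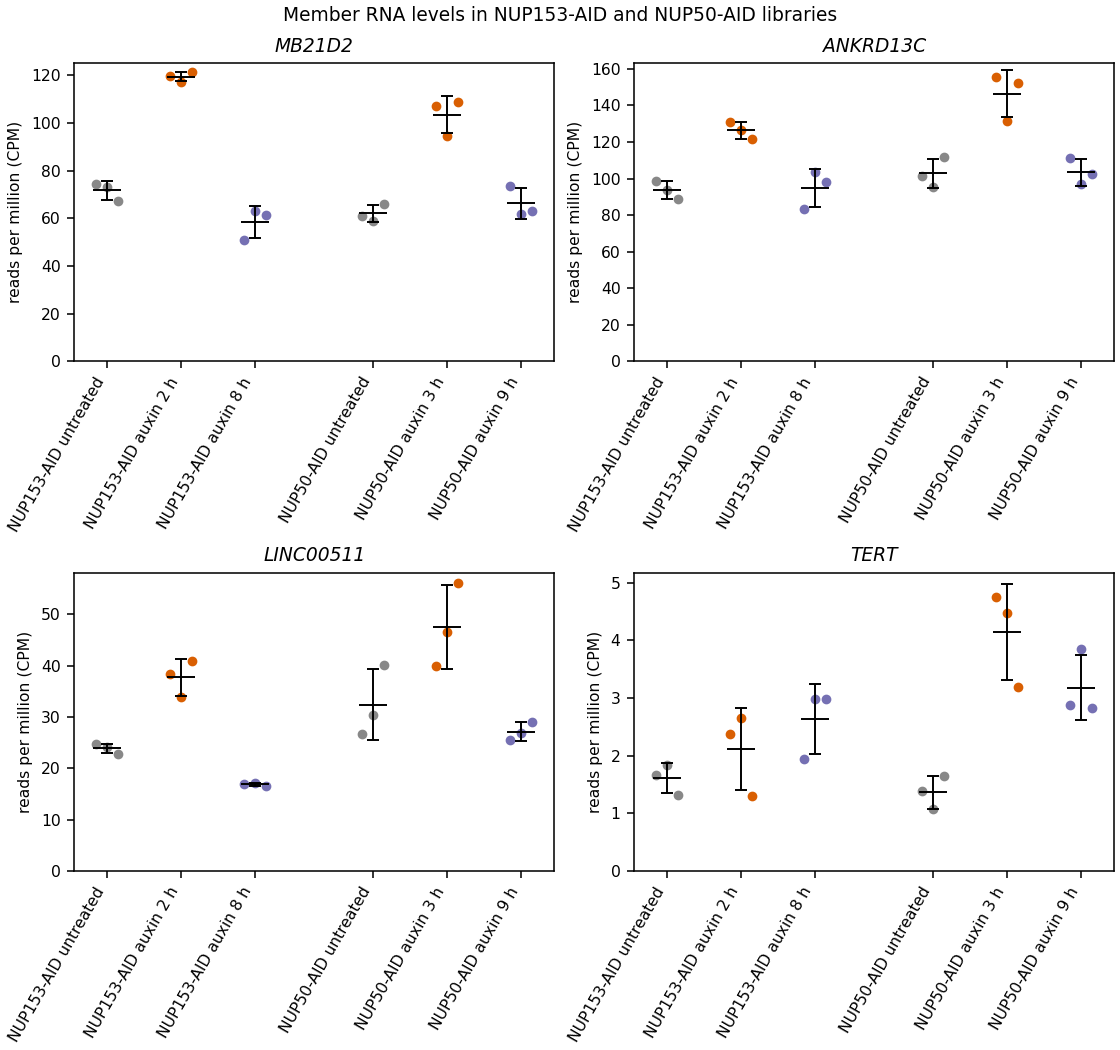
CPM (counts scaled to the library total) of each gene in every NUP153-AID and NUP50-AID library, untreated (grey), at the early (orange) and at the late auxin time (purple); bars show the mean and SD of 3 libraries, and all axes start at 0. MB21D2 was near 119 CPM after 2 h in NUP153-AID cells and near 58.3 CPM after 8 h, while TERT in NUP50-AID cells was above its untreated libraries at both times.

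The working name of these genes ties them to loss of basket proteins, and the lines outside the rule did not keep to it. In RANGAP1-AID cells, where no basket protein is tagged, MB21D2 rose at both times. MB21D2 stood at 27.8, 28.3 and 27.1 CPM untreated, 53.4, 59.0 and 55.1 CPM after 2 h and 47.7, 52.4 and 51.0 CPM after 8 h. No auxin library overlapped an untreated one, and the rise was 1.04 ± 0.08 on the log2 scale at 2 h (edgeR's quasi-likelihood test, adjusted p = 0.000293) and 0.90 ± 0.07 at 8 h (adjusted p = 2.99e-05). A call needs an adjusted p under 0.05 with a fold that reaches 1.3 upward or 0.7 downward. Whether the libraries of 2 groups overlap is a description here and below, and the share of all genes without overlap is not given. Of the 4 genes, 2 were called at 2 h, where 0.589% of all genes were, and 3 at 8 h, where 14.9% were.

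The other 3 genes were also higher in RANGAP1-AID cells, with calls that depended on the time. ANKRD13C stood at 79.1, 79.0 and 73.9 CPM untreated, 88.2, 102.7 and 102.7 CPM after 2 h and 110.8, 116.2 and 114.0 CPM after 8 h. It rose by 0.60 ± 0.07 at 8 h (adjusted p = 0.000187), and at 2 h the difference was 0.37 ± 0.09 (adjusted p = 0.158). With the replicate number as a block, which the libraries of this line allow, ANKRD13C at 2 h had an adjusted p of 2.86e-05 with a fold just under 1.3. That fit called 468 of all 17812 genes.

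LINC00511 stood at 33.2, 27.5 and 25.5 CPM untreated, 52.2, 46.8 and 39.6 CPM after 2 h and 38.7, 36.8 and 32.2 CPM after 8 h. The 2 h libraries were all higher and the 8 h libraries overlapped the untreated ones. It rose by 0.72 ± 0.13 at 2 h (adjusted p = 0.0428); leaving out auxin replicate 1 or 2, or untreated replicate 2 or 3, ended this call, with adjusted p from 0.0998 to 0.245. At 8 h the difference was 0.36 ± 0.11 (adjusted p = 0.0348), a fold under 1.3.

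TERT stood at 1.52, 2.14 and 3.38 CPM in untreated RANGAP1-AID libraries, 3.77, 3.88 and 5.45 CPM after 2 h and 4.56, 4.01 and 5.08 CPM after 8 h. Its untreated libraries spread widely, and none reached an auxin library. The difference of 0.91 ± 0.26 at 2 h was not called (adjusted p = 0.283, and 8.08e-05 with the replicate block), and the rise of 0.97 ± 0.23 at 8 h was (adjusted p = 0.0112). Between 8 h and 2 h, where 15.2% of all genes differed, none of the 4 genes passed in edgeR. An unadjusted p under 0.05 was reached by 2 of the 4 and by 5260 of all 17812 genes. DESeq2 passed 1 of the 4, LINC00511, and 2767 of all genes. With the replicate block 3 of the 4 passed, where 6631 of all 17812 genes did. LINC00511 was then lower at 8 h by a log2 difference of -0.36 ± 0.06 (adjusted p = 8.9e-06) and MB21D2 by -0.14 ± 0.06 (adjusted p = 0.0444). ANKRD13C was higher by 0.22 ± 0.05 (adjusted p = 0.00114).

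**Figure D2:**
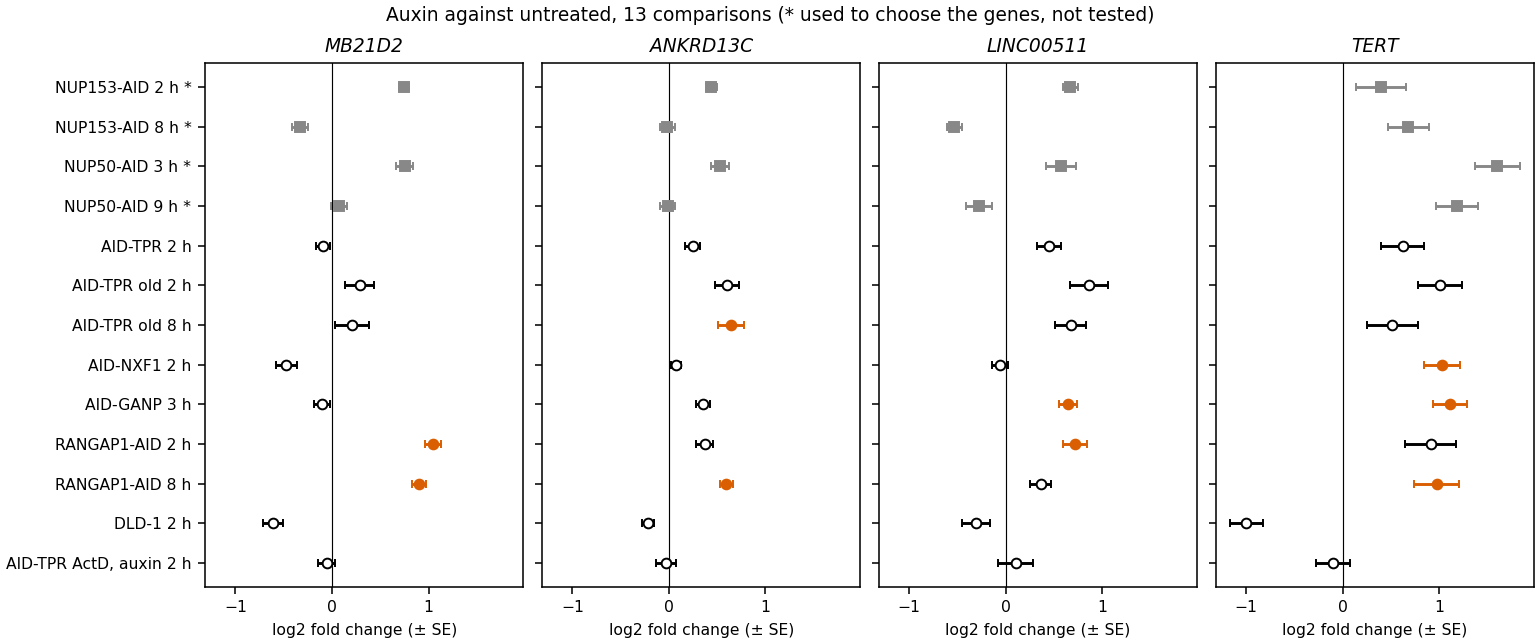
Log2 fold change of auxin against untreated libraries (squares or circles, with the standard error as bars) for each gene in 13 comparisons. Grey squares are the 4 comparisons that chose the genes, filled orange circles are calls and open circles are not called; MB21D2 was called in RANGAP1-AID cells at 1.04 and 0.90, and TERT in AID-NXF1, AID-GANP and RANGAP1-AID cells (8 h) at 1.03, 1.11 and 0.97.

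TPR is itself a basket protein, and MB21D2 did not follow its loss in a detectable way. In AID-TPR cells MB21D2 stood at 49.7, 47.2 and 42.3 CPM untreated and 43.97, 43.3 and 41.0 CPM after 2 h, ranges that overlap (log2 fold change -0.09 ± 0.08, adjusted p = 0.738). In the old set it stood at 49.7, 50.9 and 42.4 CPM untreated, 62.5, 42.6 and 57.7 CPM after 2 h and 43.0, 64.7 and 42.8 CPM after 8 h. These too overlapped, at 0.29 ± 0.15 (adjusted p = 0.466) and 0.21 ± 0.18 (adjusted p = 0.523).

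The other 3 genes were higher after TPR loss in most libraries, and few of these differences passed the adjustment over all genes. LINC00511 stood at 29.2, 35.6 and 33.6 CPM untreated and 39.7, 51.5 and 41.0 CPM after 2 h in AID-TPR cells, with no overlap (0.45 ± 0.12, adjusted p = 0.182). TERT stood at 2.73, 1.59 and 1.68 CPM and then at 3.51, 2.40 and 3.06 CPM, with overlap (0.62 ± 0.22, adjusted p = 0.376). ANKRD13C stood at 91.5, 71.8 and 79.5 CPM and then at 98.3, 94.0 and 90.1 CPM, also with overlap (0.25 ± 0.08, adjusted p = 0.288). None of the 4 genes was called by edgeR, where 0.511% of all genes were. An unadjusted p under 0.05 was reached by 3 of the 4 and by 1679 of all 17812 genes. DESeq2 called LINC00511, among 205 of all genes. In these libraries the replicate numbers pair the samples, and with the block LINC00511 (adjusted p = 5.2e-08) and TERT (adjusted p = 0.00279) were called, among 416 of all genes.

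In the old set the log2 fold changes of the same 3 genes at 2 h were larger, a difference between the sets that was not tested. ANKRD13C stood at 61.1, 70.6 and 59.1 CPM untreated, 98.3, 82.4 and 89.1 CPM after 2 h and 103.9, 92.2 and 77.1 CPM after 8 h. No auxin library overlapped an untreated one. The difference was 0.60 ± 0.12 at 2 h (adjusted p = 0.0788), and the rise of 0.65 ± 0.13 at 8 h was called (adjusted p = 0.0362), though leaving out any library but auxin replicate old2 ended that call, with adjusted p up to 0.134.

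LINC00511 stood at 33.9, 34.9 and 34.0 CPM in the old untreated libraries, 66.3, 37.7 and 71.3 CPM after 2 h and 46.2, 62.1 and 41.1 CPM after 8 h. Auxin replicate old2 of 2 h lay near the untreated range and the other auxin libraries well above it. The differences were 0.86 ± 0.19 (adjusted p = 0.112) and 0.67 ± 0.16 (adjusted p = 0.0522); without replicate old2 of each auxin group they were 1.07 (adjusted p = 0.00517) and 0.48 (adjusted p = 0.0144), and both passed.

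TERT stood at 3.65, 3.03 and 2.51 CPM in the old untreated libraries, 7.12, 4.64 and 5.50 CPM after 2 h and 5.31, 2.88 and 3.81 CPM after 8 h. The 2 h libraries were all above and those of 8 h overlapped (1.01 ± 0.23, adjusted p = 0.111, and 0.52 ± 0.27, adjusted p = 0.272). At 2 h edgeR called none of the 4 genes, where 0.455% of all genes were called. An unadjusted p under 0.05 was reached by 3 of the 4 and by 2151 of all 17812 genes. DESeq2 called 3 of the 4 and 431 of all genes. At 8 h 1 of 4 was called, against 3.61% of all genes. Between 8 h and 2 h no gene of all tested differed (0.0%) by edgeR or DESeq2, 48 of them had an unadjusted p under 0.05, and none of these 4 did.

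ActD stops transcription, and with it present auxin made no detectable difference to these RNAs. Without ActD edgeR also called 0 of the 4 at 2 h in either AID-TPR set. Whether ActD changed the effect of auxin was not tested. MB21D2 stood at 28.0, 25.7 and 27.4 CPM with ActD and 26.0, 24.3 and 27.9 CPM with auxin added. TERT stood at 1.83, 2.08 and 2.11 CPM and at 2.07, 1.66 and 1.93 CPM, and both pairs of groups overlapped. The log2 differences of the 4 genes lay between -0.10 and 0.10 with SE of 0.09 to 0.18. No gene of all tested was called (0.0%) by edgeR or DESeq2, and 78 had an unadjusted p under 0.05, none of them these 4. Values with ActD are shares of the RNA left after 2 h without synthesis, so they were not compared with the other groups.

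After removal of the export factors NXF1 and GANP, TERT rose and MB21D2 did not. In AID-NXF1 cells TERT stood at 1.02, 1.23 and 0.86 CPM untreated and 2.10, 1.89 and 2.09 CPM after 2 h, and it rose by 1.03 ± 0.18 on the log2 scale (adjusted p = 0.00215). MB21D2 stood at 50.6, 54.6 and 39.6 CPM and then at 32.8, 36.3 and 31.0 CPM. Every auxin library was lower, by a log2 fold change of -0.47 ± 0.11 (adjusted p = 0.0101), but the fold of 0.72 missed the limit of 0.7, and it passed without untreated replicate 3 (-0.61, adjusted p = 0.000348) and without auxin replicate 2 (-0.55, adjusted p = 0.0139). ANKRD13C (0.07 ± 0.06, adjusted p = 0.389) and LINC00511 (-0.06 ± 0.08, adjusted p = 0.625) overlapped the untreated libraries. So 1 of 4 was called, where 8.16% of all genes were.

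In AID-GANP cells TERT and LINC00511 rose. TERT stood at 2.68, 2.28 and 1.61 CPM untreated and 4.03, 5.01 and 4.08 CPM after 3 h (1.11 ± 0.18, adjusted p = 0.000927). LINC00511 stood at 25.2, 27.4 and 21.6 CPM and then at 35.0, 39.4 and 33.5 CPM (0.65 ± 0.09, adjusted p = 0.000544). Neither gene overlapped between groups, and both stayed called without any 1 library. ANKRD13C, at 104.8, 104.4 and 93.1 CPM and then at 123.5, 123.5 and 111.0 CPM, passed the adjustment with a fold of 1.28, under the limit (0.35 ± 0.07, adjusted p = 0.00426). MB21D2, at 47.6, 52.2 and 44.2 CPM and then at 43.3, 43.6 and 37.6 CPM, was lower in CPM in all auxin libraries, and its fold change did not pass (-0.10 ± 0.08, adjusted p = 0.369). Of the 4 genes 2 were called, where 15.5% of all genes were.

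LINC00511 responded differently to loss of NXF1 and of GANP, though at 2 h and 3 h. The difference between both log2 fold changes was -0.75 ± 0.13 (adjusted p = 0.00558, and 1.46e-07 with the replicate block). Of the 4 genes it alone passed, where 2.62% of all genes did. With the block, which passed 2685 of all 17812 genes, MB21D2 (-0.40 ± 0.08, adjusted p = 0.000312) and ANKRD13C (-0.32 ± 0.06, adjusted p = 0.000644) also passed. For TERT the difference was -0.12 ± 0.27 (adjusted p = 0.885), which did not pass.

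None of the 4 genes passed between AID-TPR 2 h and AID-NXF1, where 2.28% of all genes did by edgeR. Of the 4 genes 2 had an unadjusted p under 0.05, as 2356 of all 17812 had. DESeq2 passed none of the 4 and 580 of all genes. With the block, which passed 2370 of all genes, MB21D2 (0.38 ± 0.08, adjusted p = 0.000788) and LINC00511 (0.51 ± 0.09, adjusted p = 0.000128) passed. None passed between AID-TPR 2 h and AID-GANP, where 5.77% did. Nor did any pass by DESeq2 or with the block, which passed 1256 and 3937 of all genes. None of the 4 had an unadjusted p under 0.05, as 3197 of all genes had.

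**Figure D3:**
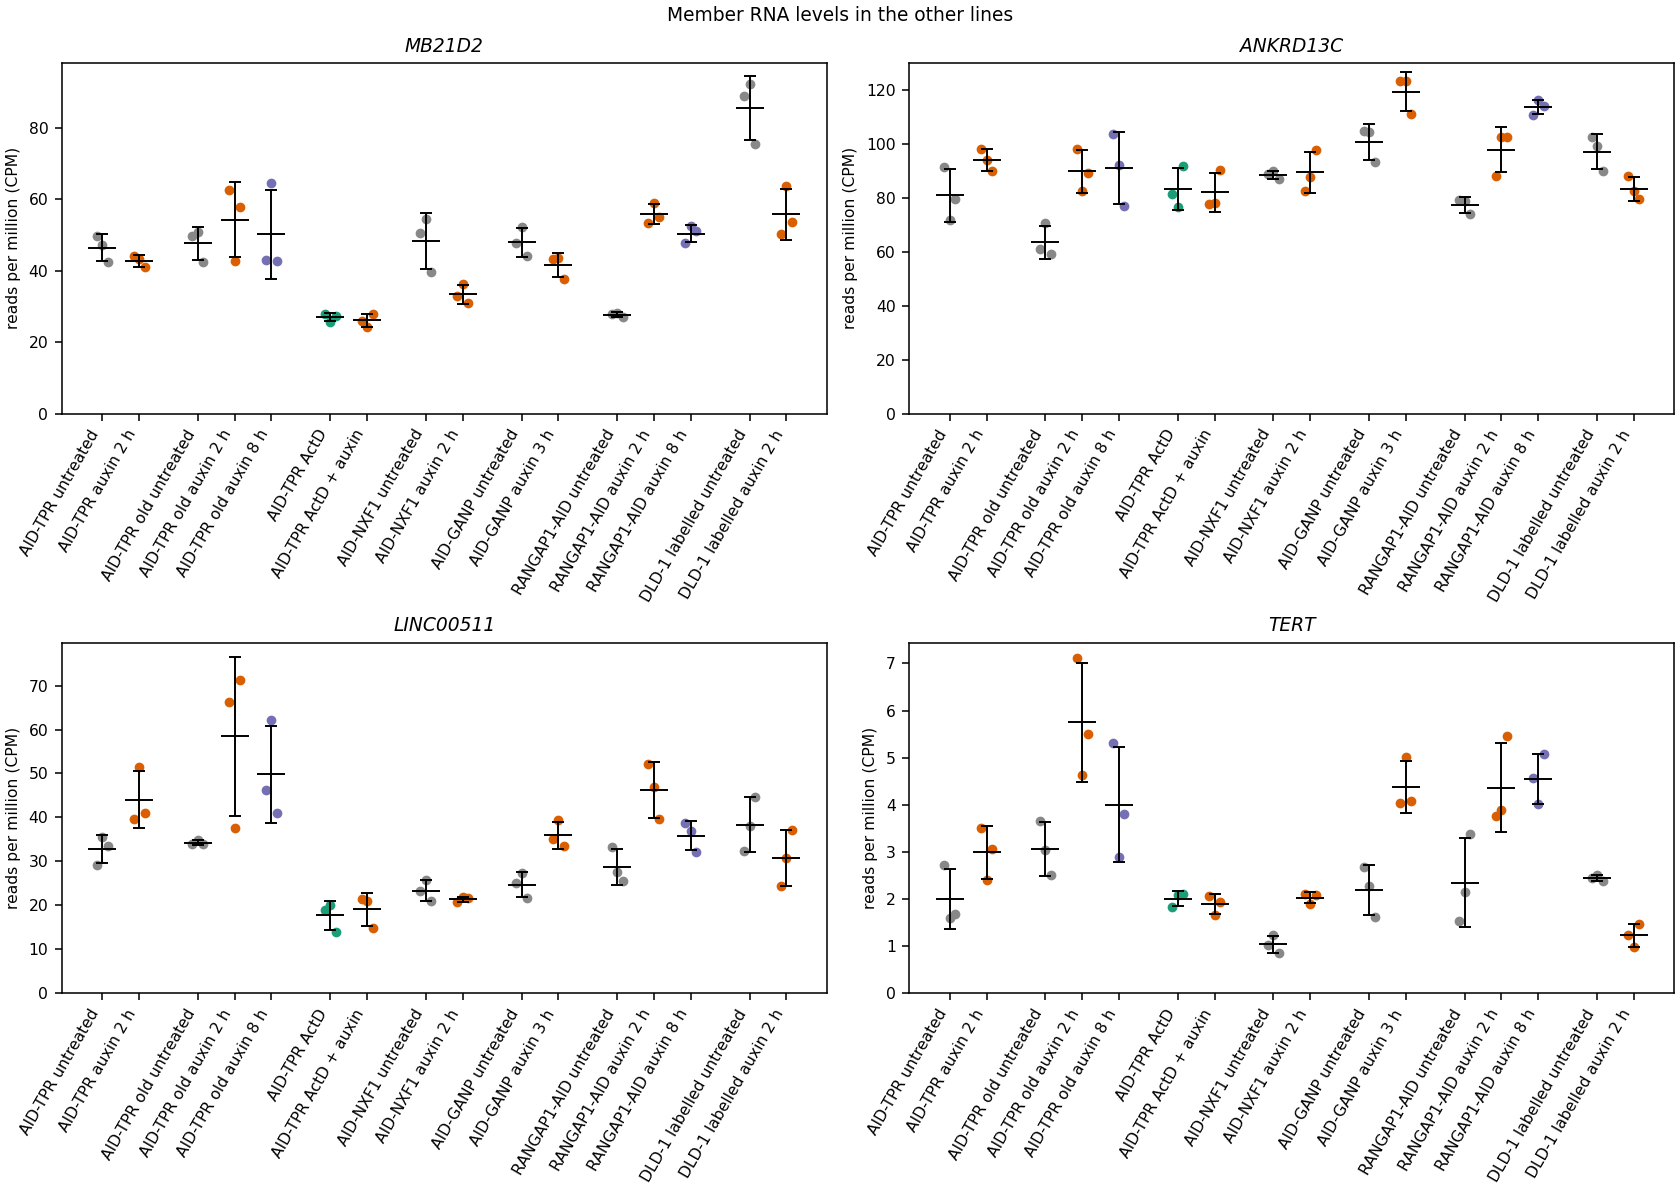
CPM (counts scaled to the library total) of each gene in every library outside the rule: untreated (grey), early auxin (orange), auxin for 8 h (purple) and ActD alone (green), with the mean and SD of 3 libraries and axes from 0. MB21D2 separated in RANGAP1-AID cells, near 27.7 CPM untreated and 55.8 CPM after 2 h, and TERT was lower in the DLD-1 libraries labelled auxin, near 1.23 CPM against 2.45 CPM.

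In parental DLD-1 cells all 4 genes were lower in the libraries labelled auxin, and by edgeR none was called, where 0.0561% of all genes were. An unadjusted p under 0.05 was reached by 3 of the 4 and by 558 of all 17812 genes. DESeq2 called 2 of the 4, MB21D2 and TERT, and 24 of all genes. MB21D2 stood at 89.0, 92.4 and 75.4 CPM labelled untreated and 50.1, 63.8 and 53.5 CPM labelled auxin (-0.61 ± 0.10, adjusted p = 0.105). TERT stood at 2.44, 2.52 and 2.39 CPM and at 1.23, 0.99 and 1.48 CPM (-0.997 ± 0.17, adjusted p = 0.105). Neither gene overlapped between the groups, which is no call. Without untreated replicate 3, MB21D2 was called at -0.70 (adjusted p = 0.0179).

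ANKRD13C stood at 102.5, 99.2 and 90.0 CPM labelled untreated and 88.1, 82.4 and 79.4 CPM labelled auxin, also apart (-0.21 ± 0.06, adjusted p = 1.0). LINC00511 stood at 32.3, 38.0 and 44.7 CPM and at 24.3, 30.9 and 37.1 CPM, with overlap (-0.31 ± 0.15, adjusted p = 1.0). With the treatments named as in the supplementary table, all 4 genes would be higher with auxin in cells that carry no degron tag. Whether the sizes in DLD-1 and tagged cells differ was not tested.

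Over the 36 auxin libraries without ActD, expressed as log2(CPM + 0.5) minus the mean of the matching untreated libraries, the genes most like each member were found among 13352 others. For MB21D2 these were CYP1B1 (Pearson r = 0.90, Spearman rho = 0.89), a hydroxylase, NANOS1 (r = 0.89, rho = 0.84), a translational repressor, and PDP1 (r = 0.87, rho = 0.81), a phosphatase of pyruvate dehydrogenase. ANKRD13C was most like GNAI1 (r = 0.88), a G protein subunit, GPATCH11 (r = 0.87) and CYP1A1 (r = 0.86). LINC00511 was most like TIPARP (r = 0.86), an ADP-ribosyltransferase, PIM1 (r = 0.85), a kinase, and ERRFI1 (r = 0.84), an inhibitor of the EGF receptor. CYP1A1, CYP1B1 and TIPARP are known targets of the aryl hydrocarbon receptor.

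TERT was most like MEGF6 (r = 0.81), ALDH1A3 (r = 0.76), a maker of retinoic acid, and CSK (r = 0.76), a kinase of SRC family proteins. The libraries share untreated means and come in groups of 3, and they include those that chose the members, so these values describe the libraries. Without the DLD-1 libraries (33 left) the 9 genes beside MB21D2, ANKRD13C and LINC00511 had r of 0.82 to 0.93 and ranks of 1 to 4, while those beside TERT had r of 0.55 to 0.57 and ranks of 110 to 148. The gene most like TERT was then AARSD1 (r = 0.77). With the names of the DLD-1 treatments turned, MEGF6 ranked 148, ALDH1A3 220 and CSK 112 for TERT, AARSD1 again came first (r = 0.76), and the 9 genes of the other members had ranks of 1 to 8. The 3 genes named for TERT are thus its nearest only under the deposited DLD-1 labels. Among the members r was 0.72 for MB21D2 with ANKRD13C, 0.73 for ANKRD13C with LINC00511 and 0.63 for MB21D2 with LINC00511, and 0.25 to 0.48 for TERT with the others, or -0.09 to 0.17 without the DLD-1 libraries.

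MB21D2 and ANKRD13C were set beside their relatives. Of 11 genes of the Mab-21 and cGAS-like family 7 were tested. In RANGAP1-AID cells at 2 h none of these 7 was called, where 0.589% of all genes were, and their median log2 fold change was 0.11, beside 0.00 over all genes. At 8 h 2 were higher and 1 lower, where 14.9% of all genes were called. In NUP153-AID cells at 8 h 1 was called, ITPRIPL2, higher (0.66 ± 0.08, adjusted p = 0.00861), where 1.34% of all genes were. In NUP50-AID cells at 9 h 1 was called, MAB21L4, higher (0.41 ± 0.08, adjusted p = 0.0472), where 0.371% were. At the early times of these lines none was called, where 0.0393% and 0.219% of all genes were. In AID-GANP cells 4 of the 7 were lower, where 15.5% of all genes were called and 2052 of 17812 were lower, with a median of -0.57 beside 0.01 over all genes, among them MIEF2, a mitochondrial fission adaptor (-1.08 ± 0.11, adjusted p = 4.36e-05), and ITPRIPL2 (-0.58 ± 0.07, adjusted p = 0.000123). MIEF2 also fell in AID-NXF1 cells (-0.66 ± 0.09, adjusted p = 0.000458) and in the old AID-TPR set at 2 h (-1.03 ± 0.16, adjusted p = 0.0302) and 8 h (-1.11 ± 0.15, adjusted p = 0.0106). Of the 3 other ANKRD13 genes ANKRD13B alone was called, lower in AID-GANP cells (-0.83 ± 0.12, adjusted p = 0.0006) and higher in RANGAP1-AID cells at 8 h (0.46 ± 0.15, adjusted p = 0.044).

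Few other parts of telomerase and the telomere were called. All 23 genes of that list were tested, and none of the 13 comparisons called more than 1. The share of all genes called reached 15.5%, in AID-GANP cells, and was 0.0393% and 1.34% in NUP153-AID cells at 2 h and 8 h and 0.219% and 0.371% in NUP50-AID cells at 3 h and 9 h. In AID-NXF1 cells they ranged from -0.34 to 0.41 on the log2 scale, where TERT was at 1.03, and TERC, the RNA template, was the single call (0.41 ± 0.06, adjusted p = 0.000583). In AID-GANP cells they ranged from -0.75 to 0.36, where TERT was at 1.11, and TERF2IP, a shelterin subunit, was the single call, lower (-0.75 ± 0.07, adjusted p = 3e-05). In RANGAP1-AID cells at 8 h CTC1, of the CST complex, was the single call, also lower (-0.76 ± 0.09, adjusted p = 0.00025). The list medians lay between -0.02 and 0.14 over 13 comparisons, near the medians of all genes.

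Among 16 transcription factors reported to act at TERT, KLF4, which is known to activate it in stem cells, was called higher in 5 of the 9 comparisons outside the rule. It ran from 0.47 ± 0.08 in RANGAP1-AID cells at 8 h to 0.83 ± 0.13 in the old AID-TPR set at 2 h (adjusted p = 0.00158 and 0.0247). The share of all genes called in these 5 comparisons ran from 0.455% in the old set at 2 h to 15.5% in AID-GANP cells. KLF4 was at -0.20 ± 0.10 in AID-NXF1 cells (adjusted p = 0.172) and at -0.44 ± 0.11 in the DLD-1 libraries labelled auxin (adjusted p = 0.657). Whether KLF4 or the factors below bear on TERT was not tested. Outside the rule MYC was called in 1 comparison, the old AID-TPR set at 8 h (0.95 ± 0.21, adjusted p = 0.0434), where 3.61% of all genes were. In RANGAP1-AID cells at 8 h, where 14.9% of all genes were called, MXD1, another partner of MAX, fell (-0.83 ± 0.10, adjusted p = 0.000217) and ETS1 rose (0.76 ± 0.13, adjusted p = 0.00183). MNT, a repressor that pairs with MAX, was lower in AID-NXF1 (-0.53 ± 0.13, adjusted p = 0.012) and AID-GANP cells (-0.70 ± 0.17, adjusted p = 0.00971), where 8.16% and 15.5% of all genes were called. In NUP153-AID cells at 8 h 1 of the 16 was called, lower, where 1.34% of all genes were. The list ran from -1.17 to 0.28 there. At 2 h in that line and at 3 h and 9 h in NUP50-AID cells none was called, where 0.0393%, 0.219% and 0.371% of all genes were.

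**Figure D4:**
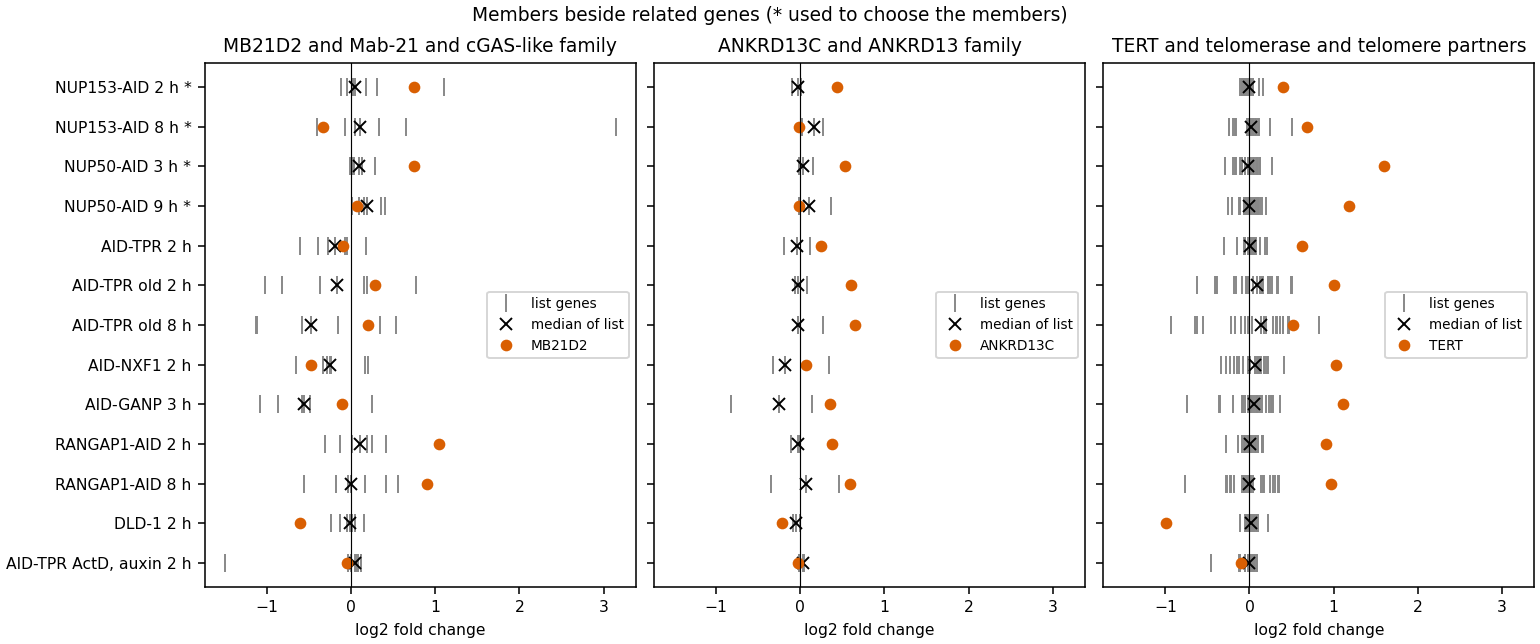
Log2 fold change of MB21D2, ANKRD13C and TERT (orange circles) beside each tested gene of the related list (grey ticks) and the list's median (cross) in 13 comparisons. In AID-GANP cells TERT was at 1.11 while its 23 partners reached 0.36 at most, and in RANGAP1-AID cells at 2 h MB21D2 was at 1.04 while its family reached 0.41.

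Of the genes next to the members 2 were called in at least 1 comparison. HHLA3, a noncoding gene, starts 0.05 kb from ANKRD13C on the other strand. It rose in RANGAP1-AID cells at 2 h (0.87 ± 0.15, adjusted p = 0.0372) and 8 h (0.62 ± 0.13, adjusted p = 0.00678), where 0.589% and 14.9% of all genes were called. ANKRD13C was called there at 8 h and not at 2 h. In NUP50-AID cells at 3 h, a comparison that chose the members, HHLA3 also met the rule for calls, as 0.219% of all genes did, at 1.11 ± 0.15 (adjusted p = 0.0103). SRSF11, on the other side, was not called in any of the 13 comparisons. Nor were CCDC50 and PLAAT1 beside MB21D2, SOX9-AS1 and ENSG00000263893 beside LINC00511, or SLC12A7 and CLPTM1L beside TERT. Some passed the adjustment with too small a fold. CLPTM1L was higher in AID-NXF1 (0.28 ± 0.05, adjusted p = 0.00183) and AID-GANP cells (0.31 ± 0.07, adjusted p = 0.0107). It was also higher in RANGAP1-AID cells at 8 h (0.30 ± 0.06, adjusted p = 0.00641). TERT was called in each, and a link was not tested. SLC12A7 was lower in AID-NXF1 cells (-0.22 ± 0.06, adjusted p = 0.0232) and SRSF11 in RANGAP1-AID cells at 8 h (-0.51 ± 0.08, adjusted p = 0.00111). ENSG00000263680, inside the LINC00511 span on the other strand, was called in AID-GANP cells (0.62 ± 0.15, adjusted p = 0.0121), as LINC00511 was and as 15.5% of all genes were. Whether counting used the strand is not given in the sources used here, so reads of both cannot be told apart. Counts of ENSG00000263680 came to 0.9% to 3.1% of those of LINC00511 in the 33 libraries without RMRP counts. In the other libraries, AID-GANP among them, they came to 7.8% to 12.1%.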

How the data were processed

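Total RNA without ribosomal RNA was sequenced. The authors mapped reads to GRCh38 with STAR (2.6.1c in the submitters' processing notes) and deposited whole counts of reads per Ensembl gene from featureCounts (1.5.2), not normalized. How reads on overlapping genes and on either strand were assigned is not given in the sources used here. The study states that replicates were independent. Tested genes had more than 1 CPM in at least 4 of 60 libraries without ActD. After TMM scaling, edgeR 4.0.16 (R 4.3.3) compared each auxin group with the untreated group of its own line and set (quasi-likelihood test, two-sided, Benjamini-Hochberg over all tested genes). Differences between comparisons are interaction terms, passed at an adjusted p under 0.05. Calls in DLD-1 cells were not subtracted from those of other lines. The SE is the log2 fold change over the square root of F. CPM and RPKM use library totals and GENCODE 44 exons. The test was tried on simulated counts.

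The members and lists were chosen with earlier results of these data known. Named genes are the members, their neighbours, the 3 most alike, the tagged genes and at most 2 called genes per list and comparison; a symbol with 2 identifiers kept the longer exon model. Replicate numbers were taken as pairing libraries where all 3 same-numbered pairs correlated by more than 0.1 in their deviations from group means, in 7 of 13 comparisons (AID-TPR, AID-NXF1, AID-GANP, both of RANGAP1-AID, ActD and NUP153-AID 2 h). Alternatives were no filter, filterByExpr, RLE, unscaled library sizes, DESeq2 1.42.0, the replicate block, a joint fit of 60 libraries, 1.3-fold as the limit both ways, and each library left out. Likeness without DLD-1, or with its treatment names turned, was added after seeing the data.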

Additional observations from a re-analysis of the deposited data

Results flagged for a closer look

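LINC00511 was marked because its response differed between lines by a test of the difference itself: the log2 fold change in AID-NXF1 cells minus that in AID-GANP cells was -0.75 ± 0.13 (edgeR's quasi-likelihood test, adjusted p = 0.00558), with levels of 20.8 to 21.9 CPM after auxin in the first and 33.5 to 39.4 CPM in the second. The auxin times differ, at 2 h and 3 h, and their part in this was not tested. Groups of 3 libraries were not tested for single outlying samples.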

How the results depend on the processing

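Of 812 tested values of single genes under an alternative, 720 kept their direction and side of the threshold, 59 newly passed, 11 no longer passed and 22 changed sign. Of 224 values described without a test in NUP153-AID and NUP50-AID cells, 222 moved by less than the spread between replicates and 2 by more: LINC00511 in NUP50-AID cells, which ran from 0.424 to 0.760 at 3 h and from -0.404 to -0.093 at 9 h over single libraries left out. Of the 224, 7 changed sign, in ANKRD13C at the late time of both lines and in MB21D2 in NUP50-AID cells at 9 h, with values between -0.010 and 0.064. MB21D2 between AID-TPR 2 h and AID-GANP turned to -0.018 with RLE, -0.017 with DESeq2 and -0.019 with filterByExpr, and over single libraries left out ran from -0.072 to 0.048. Over such omissions MB21D2 ran from -0.020 to 0.311 in the old AID-TPR set at 8 h and from -0.302 to 0.020 between 8 h and 2 h, ANKRD13C from -0.056 to 0.142 between these times and from -0.115 to 0.061 with ActD, LINC00511 from -0.143 to 0.013 in AID-NXF1 cells and from -0.041 to 0.253 with ActD, and TERT from -0.028 to 0.253 between 8 h and 2 h in RANGAP1-AID cells and from -0.269 to 0.050 between AID-NXF1 and AID-GANP. 

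Of the 4 genes, the number called in AID-TPR 2 h went from 0 to 1 with DESeq2 and no filter and 2 with the replicate block; in the old set at 2 h from 0 to 3 with DESeq2, no filter, the block and one fit; in the old set at 8 h from 1 to 2 with RLE, DESeq2, no filter, the block and one fit and to 0 with library sizes alone; in AID-NXF1 from 1 to 2 with a fold of 1.3 in both directions and with library sizes alone; in RANGAP1-AID 2 h from 2 to 1 with library sizes alone and 4 with no filter; and in DLD-1 from 0 to 2 with DESeq2, no filter and the block and 1 with one fit. In RANGAP1-AID 2 h the number was also 3 with the block, and TERT newly passed there with one fit. In RANGAP1-AID 8 h LINC00511 newly passed with no filter. Between conditions the number went from 0 to 1 (DESeq2, no filter) and 3 (block) for RANGAP1-AID times, from 1 to 3 (block) for AID-NXF1 against AID-GANP, and from 0 to 1 (no filter) and 2 (block) for AID-TPR against AID-NXF1. Leaving out single libraries gave 0 to 1 in the old set at 2 h, 0 to 2 at 8 h, 1 to 2 in AID-NXF1, 2 to 3 in AID-GANP, 1 to 2 in RANGAP1-AID 2 h, 3 to 4 at 8 h, 0 to 1 in DLD-1, 1 to 2 for AID-NXF1 against AID-GANP, and 0 to 1 for AID-TPR 2 h against AID-NXF1 and for RANGAP1-AID times. The number of all 17812 genes called moved as well. DESeq2 called 205 in AID-TPR 2 h, 431 and 1904 in the old set at 2 h and 8 h, and 24 in DLD-1. The block called 416, 292, 1682 and 48 there. For the other alternatives such numbers are not given here. The cause of these changes was not tested. The replicate numbers of both old sets, DLD-1, NUP153-AID 8 h and NUP50-AID missed the limit of 0.1 in at least 1 pair, so the block is given for those here only. In the old set at 2 h the pairs correlated at 0.59, 0.06 and 0.52, and in DLD-1 at 0.64, 0.06 and 0.53. Whether part of these libraries are paired was not settled. Library sizes alone shifted the members' log2 fold changes by a median of -0.132 in the old set at 8 h and -0.107 in AID-GANP, a shift that this scaling gives to all genes. TERT is limited by depth, with 25 counts in its lowest library.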
